A study of Mus musculus with 6 samples.

Results

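The genes for the proteins of the mitochondrial ribosome were followed in E9.5 mouse hearts with and without *Smyd1*. The members were all rows of the raw count table whose symbol is *Mrpl* or *Mrps* followed by a number and, where present, the letter a or b, without the suffix of a pseudogene. This rule found 77 of 54532 rows, 49 for the large subunit (*Mrpl*) and 28 for the small subunit (*Mrps*). No measured value entered the rule. The 77 genes lie on 17 chromosomes, with at most 11 on any of them (chromosome 11).

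Mitochondria carry their own small genome and translate its few mRNAs, all of which encode core subunits of the respiratory chain and of ATP synthase, on their own ribosome. The rRNAs of this mitoribosome come from the mitochondrial genome, whereas its proteins are encoded in the nucleus, made on cytosolic ribosomes and imported. Some of the proteins descend from bacterial ribosomal proteins and others are found only in mitochondria, and inherited loss of several of them causes cardiomyopathy in children.

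RNA-seq libraries were made from individual hearts of 3 *Smyd1-KO* and 3 WT mouse embryos at E9.5. SMYD1 is a histone methyltransferase of heart and skeletal muscle, and the mutants are homozygous for a null allele that all their cells carry, not for a deletion limited to cardiomyocytes. Heterozygous and WT mice came from the Jackson Laboratory, and embryos of both sexes were used according to the study's methods. No treatment was given, and the labels name no litter, batch or day.

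The table held 48627825 to 64217529 counts per heart. Levels are given as CPM, counts divided by the library size, adjusted with TMM factors. *Smyd1* itself was measured at 101, 222 and 206 CPM in the *Smyd1-KO* hearts and at 414, 379 and 270 CPM in the WT hearts. It was lower in each *Smyd1-KO* heart, at 49.8% of the WT mean, with an adjusted *P* of 0.0973, and the counts are summed over the whole gene, so they do not show which transcripts remained. The summed level of 14 cardiomyocyte markers was 9921, 20563 and 20663 CPM in *Smyd1-KO* and 22063, 20432 and 13131 CPM in WT hearts. Of these markers 11 were lower in *Smyd1-KO* hearts. When *Smyd1-KO* heart 1 was left out 12 were higher, and when WT heart 1 was left out 9 were higher. No marker of this or the next lists was at 0 in all hearts. The summed level of 14 erythroid markers was 29.1 to 291 CPM in *Smyd1-KO* and 763 to 1017 CPM in WT hearts, without overlap. The 10 endothelial and endocardial markers summed to 691 to 1050 CPM in *Smyd1-KO* and 676 to 815 CPM in WT, the 6 epicardial ones to 155 to 270 and 118 to 150 CPM, and the 6 macrophage ones to 6.44 to 8.85 and 6.14 to 6.88 CPM. In whole hearts, fewer cells of a type and less RNA per cell cannot be told apart.

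Of the 77 genes, 76 were expressed well enough to be tested, with 633 to 5496 counts per gene and heart. *Mrpl53* had 0 counts in all 6 hearts and was not tested. It lies at chr6:83109040-83109939 on the plus strand of GRCm38, and 88.0% of its exonic bases are also annotated to other genes, *Gm42688* and *Ccdc142os*. Its 0 therefore says nothing of its transcription, since a read that falls on several annotated genes may have been left out by the authors' counting.

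Compared per length, as TPM (counts divided by exonic length and scaled to a common total, computed here), the WT means of the 76 genes ran from 7.19 to 276, with a median of 62.6. Large-subunit genes had a median of 67.6 TPM and small-subunit genes one of 39.4 TPM. In the large subunit the highest WT levels per length were those of *Mrpl34* (276 ± 29.4 TPM, SD, n = 3), *Mrpl12* (180 ± 17.3) and *Mrpl28* (160 ± 10.1). The lowest were those of *Mrpl33* (7.19 ± 0.353 TPM), *Mrpl48* (13.3 ± 0.669) and *Mrpl32* (15.1 ± 1.11). In the small subunit *Mrps21* (203 ± 18.8 TPM), *Mrps12* (132 ± 7.71) and *Mrps23* (129 ± 6.78) were highest, and *Mrps35* (13.6 ± 0.561), *Mrps30* (15.9 ± 1.37) and *Mrps25* (18.5 ± 1.09) lowest. For *Mrps25*, 69.8% of the exonic bases are also annotated to *Nr2c2*, so that its level may be undercounted. *Mrps12* and *Mrps23* differed by less than the SD of either. From the lowest to the highest member the WT level per length spanned 38.5-fold, a figure that depends on which annotated exons are used.

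Few members of the family passed the test. Genes were called with edgeR's quasi-likelihood test where the Benjamini-Hochberg adjusted *P* over all tested genes was under 0.05 and the log2 fold change was 0.5 or more in size. By this rule 2 of the 76 members were called, both lower in *Smyd1-KO* hearts, *Mrpl36* and *Mrpl20*. Over all 19372 tested genes the rule called 4.28%, 1.42% as lower and 2.86% as higher. DESeq2 called the same 2 members and 5.28% of 33106 genes, many of which edgeR's filter left out. Among the 19347 of these genes that edgeR also tested, DESeq2 called 621 lower and 1117 higher. Without the limit on the fold change 5 members passed, 4 lower and 1 higher, against 5.33% of all genes, 2.01% lower and 3.32% higher. An unadjusted *P* under 0.05 was found for 20 members, 19 lower and 1 higher, against 25.1% of all tested genes, 11.9% lower and 13.1% higher. Thus by edgeR the share of members that passed was near that of all genes at each threshold, and the direction was mostly down. DESeq2 called a smaller share of the members than of the genes that edgeR tested.

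The log2 fold change was under 0 for 58 of the 76 members, against 50.2% of all tested genes, and its median was -0.09, against -0.0026 for all tested genes. It ran from -0.57 to 0.35, and the median standard error was 0.10. In 25 members every *Smyd1-KO* heart lay below every WT heart (15.5% of all tested genes), in 4 every *Smyd1-KO* heart lay above (15.9%), and in 47 the genotypes overlapped.

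**Figure D1:**
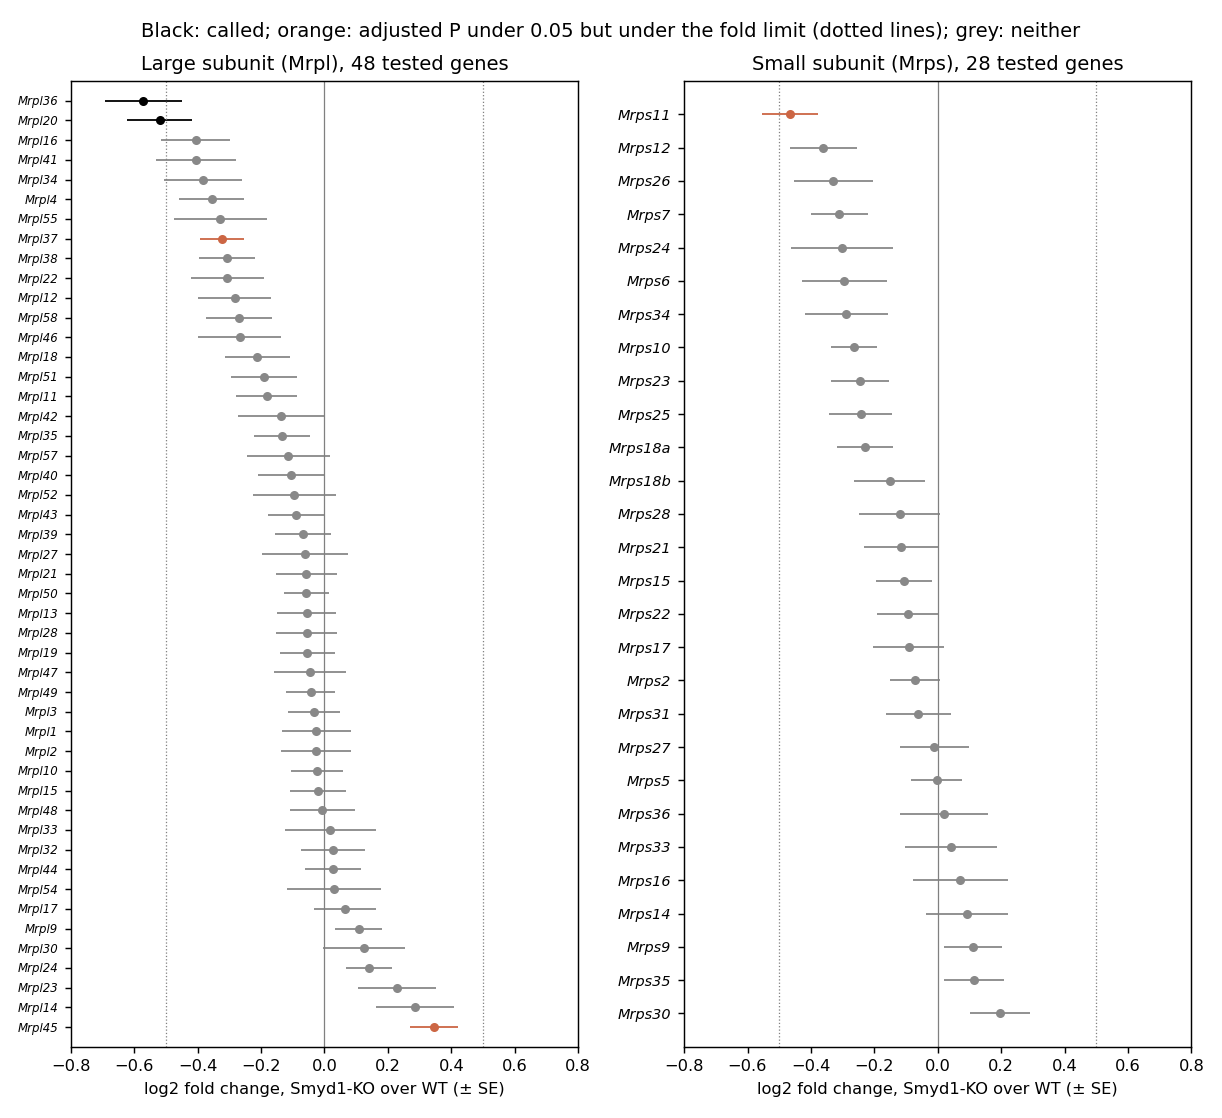
Log2 fold change of *Smyd1-KO* over WT (x axis, with its standard error) for each of the 48 tested large-subunit and 28 small-subunit genes, ordered by value. *Mrpl36* and *Mrpl20*, in black, lie beyond the dotted fold limit of 0.5, *Mrpl37*, *Mrps11* and *Mrpl45*, in orange, passed the adjusted *P* alone, and the other genes are grey.

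After TMM scaling, the downward shift of the family as a whole rested on 1 WT heart. For each member the log2 CPM of each heart was set against the gene's WT mean. The median member was at 0.16 in WT heart 1, at -0.05 in WT heart 2 and at -0.10 in WT heart 3. In the *Smyd1-KO* hearts the medians were -0.10, -0.05 and -0.12, close to those of WT hearts 2 and 3. For the small subunit alone they were -0.12, -0.11 and -0.13, all below the -0.05 and -0.09 of WT hearts 2 and 3. For the large subunit they were -0.09, -0.04 and -0.09, against -0.05 and -0.12, with overlap. WT heart 1 was above the mean of the other WT hearts in 74 of the 76 members, by a median of 0.25, while over all tested genes the median was 0.0061. When WT heart 1 was left out, 39 members were lower and 37 higher, with a median log2 fold change of -0.0015. Of the small-subunit genes 16 were then lower and 12 higher (median -0.026), and of the large-subunit genes 23 and 25 (median 0.0077). With each of the other hearts left out, 54 to 63 members were lower. Other lists were also high in WT heart 1: cardiomyocyte markers by a median log2 of 0.58, nuclear complex I genes by 0.38 and cytosolic ribosomal protein genes by 0.32. The part of that heart's make-up in the shift was not tested.

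**Figure D2:**
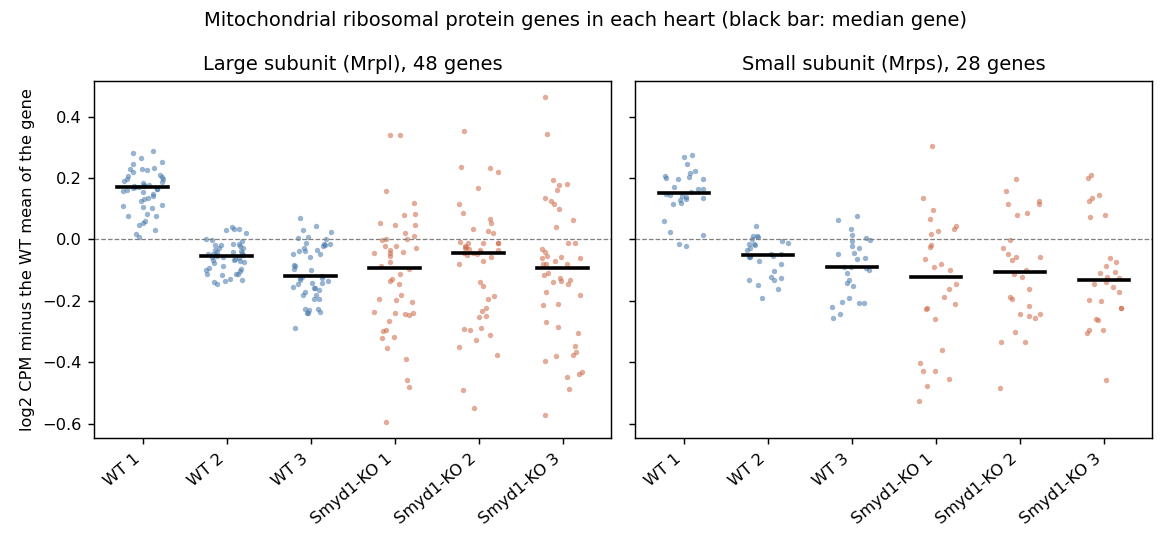
Each point is a gene, placed by its log2 CPM in a heart minus its mean over the 3 WT hearts (y axis), for the large (left) and small subunit (right), and the black bar is the median gene. The WT heart 1 medians stand at 0.17 and 0.15, above those of all the other hearts.

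The scale also mattered. The summed level of the members was 2954, 3007 and 2950 CPM in *Smyd1-KO* and 3540, 3060 and 2981 CPM in WT hearts after TMM scaling, so that *Smyd1-KO* heart 2 lay above WT heart 3. The small-subunit genes alone summed to 951 to 968 CPM in *Smyd1-KO* and 982 to 1149 CPM in WT hearts, without overlap. The large-subunit genes summed to 1993 to 2039 and 1999 to 2391 CPM, with overlap. As a share of all counts, without TMM scaling, the members took 0.289% to 0.295% in *Smyd1-KO* and 0.309% to 0.350% in WT hearts, without overlap. On the TPM scale the large-subunit genes summed to 3209 to 3259 in *Smyd1-KO* and 3508 to 3885 in WT hearts, and the small-subunit genes to 1377 to 1414 and 1557 to 1699, again without overlap. On both of these scales WT hearts 2 and 3 also lay above all *Smyd1-KO* hearts, so that the lower values there did not rest on WT heart 1. Neither scale uses the TMM factors, which were 0.979 in *Smyd1-KO* hearts 2 and 3 and 1.017 and 1.038 in WT hearts 2 and 3. The factors of *Smyd1-KO* heart 1 and WT heart 1 lay between these. A lower factor goes with a lower unscaled share of most genes. Shares of all tested genes were not compared, and whether these lower values are particular to the family was not tested. Whether the family as a whole was lower than in every WT heart therefore depended on the scaling.

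The 5 members that passed the adjusted *P* are given first. *Mrpl36* (ENSMUSG00000021607, chr13:73328513-73332178, plus strand) encodes a small zinc-binding protein of the large subunit that is conserved from bacteria. It measured 21.6, 23.2 and 21.9 CPM in *Smyd1-KO* and 38.0, 32.4 and 28.6 CPM in WT hearts. All *Smyd1-KO* hearts were below the lowest WT heart, and WT heart 1 was the highest. The log2 fold change was -0.57 ± 0.12 (SE) with an adjusted *P* of 0.0430, or 67.3% of the WT mean, and it ran from -0.66 to -0.45 when each heart was left out in turn. Its first bases overlap those of *Ndufs6* on the other strand, and 2.58% of its exonic bases are shared.

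*Mrpl20* (ENSMUSG00000029066, chr4:155802878-155809975, plus strand) encodes a protein that binds the large rRNA early in assembly in bacteria. It measured 22.6, 21.5 and 22.5 CPM in *Smyd1-KO* and 35.5, 28.9 and 31.1 CPM in WT hearts, without overlap. The log2 fold change was -0.52 ± 0.10, with an adjusted *P* of 0.0363, and ran from -0.59 to -0.43 when each heart was left out. The gene shares no exonic base with another. *Mrpl20* remained called in 1 of the 6 fits with a heart left out, that without *Smyd1-KO* heart 1, and *Mrpl36* in 0 of them, where its adjusted *P* was 0.0596 to 0.152.

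Below the fold limit, *Mrps11*, whose protein lies on the platform of the small subunit, measured 20.5, 19.7 and 20.1 CPM in *Smyd1-KO* and 27.3, 26.7 and 29.3 CPM in WT hearts. The *Smyd1-KO* values lay close together, under all WT values, and WT heart 1 was not the highest. The log2 fold change was -0.47 ± 0.09 (adjusted *P* of 0.0321), and it hardly moved without WT heart 1 (-0.47). *Mrpl37*, a mitochondria-specific protein of the large subunit, measured 63.8, 64.0 and 60.2 CPM against 81.7, 75.9 and 77.5 CPM. Its *Smyd1-KO* hearts were again all lower, with a log2 fold change of -0.32 ± 0.07 (adjusted *P* of 0.0445).

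*Mrpl45* went the other way. Its protein sits at the exit of the polypeptide tunnel and holds the mitoribosome to the inner membrane. It measured 76.1, 76.7 and 76.1 CPM in *Smyd1-KO* and 64.5, 59.0 and 56.5 CPM in WT hearts. Every *Smyd1-KO* heart was above every WT heart, although WT heart 1 was the highest of the WT hearts. The log2 fold change was 0.35 ± 0.07 (adjusted *P* of 0.0448), and 0.41 without WT heart 1 (adjusted *P* of 0.0457), where it was the 1 member that still passed the adjusted *P*. *Mrpl45* (ENSMUSG00000018882) lies at chr11:97315716-97329920 on the plus strand and shares no exonic base with another gene.

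**Figure D3:**
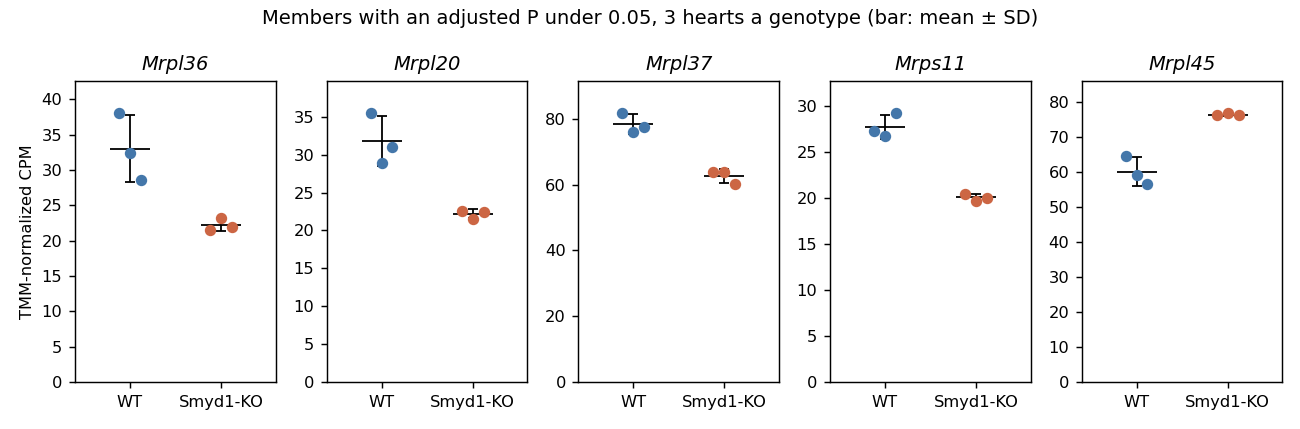
TMM-scaled CPM (y axis, from 0) of the 5 members with an adjusted *P* under 0.05, with a point per heart and the mean ± SD of 3 hearts a genotype. In *Mrpl36*, *Mrpl20*, *Mrpl37* and *Mrps11* all *Smyd1-KO* hearts lie below the WT hearts, and in *Mrpl45* all lie above them, at 76.1 to 76.7 against 56.5 to 64.5.

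Under an unadjusted *P* of 0.05, 11 members passed in each of the 6 fits with a heart left out, 10 lower and 1 higher. Over all tested genes 12.8% did so, 5.59% lower and 7.21% higher, so that the total was near the background. The 10 were *Mrpl4*, *Mrpl16*, *Mrpl20*, *Mrpl36*, *Mrpl37*, *Mrpl38*, *Mrps7*, *Mrps10*, *Mrps11* and *Mrps12*, and the 1 was *Mrpl45*. Over 13 fits with other settings or hearts, the main one included, 38 members kept a negative sign, 11 kept a positive sign and 27 changed sign at least once. Of the 17221 genes with a value in every one of these fits, 35.6% kept a negative sign, 36.6% a positive one and 27.8% changed.

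Among large-subunit proteins of the rRNA core, *Mrpl16*, which stands near the tRNA sites, had 23.7, 25.1 and 25.6 CPM in *Smyd1-KO* and 37.2, 29.6 and 31.8 CPM in WT hearts, without overlap. Its log2 fold change of -0.41 ± 0.11 did not pass by edgeR (adjusted *P* of 0.0762). By DESeq2 the adjusted *P* was 0.0351, with the fold change of -0.40 under the limit. *Mrpl34*, the most abundant member per length, had 37.1, 38.3 and 35.0 CPM against 55.5, 48.2 and 40.2 CPM. Its *Smyd1-KO* hearts were all lower, and the log2 fold change was -0.38 ± 0.12 (adjusted *P* of 0.115). *Mrpl41*, a mitochondria-specific protein, had 23.8, 24.8 and 22.8 CPM against 36.1, 32.0 and 26.5 CPM, with a log2 fold change of -0.41 ± 0.13 (adjusted *P* of 0.108).

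*Mrpl3*, a core protein whose loss in humans causes cardiomyopathy, had 76.9, 73.0 and 68.5 CPM in *Smyd1-KO* and 79.8, 70.0 and 73.4 CPM in WT hearts. The genotypes overlapped, and the log2 fold change was -0.03 ± 0.08. *Mrpl28* overlapped as well, at 60.8, 60.6 and 60.3 against 70.9, 61.9 and 56.1 CPM (-0.06 ± 0.10). At the low end, *Mrpl32* and *Mrpl33* had log2 fold changes of 0.03 ± 0.10 and 0.02 ± 0.14. Around the tunnel exit, beside *Mrpl45*, *Mrpl23* had 61.8, 57.5 and 53.2 CPM against 57.2, 47.5 and 42.5 CPM (0.23 ± 0.12) and *Mrpl24* had 48.9, 53.1 and 54.0 CPM against 47.4, 46.6 and 47.4 CPM (0.14 ± 0.07). In *Mrpl24* the genotypes did not overlap and in *Mrpl23* they did, and neither passed the test (adjusted *P* of 0.283 for *Mrpl24* and 0.297 for *Mrpl23*). *Mrpl14*, which contacts the small subunit, had 32.7, 34.1 and 40.5 CPM against 32.8, 28.6 and 26.5 CPM (0.29 ± 0.12, adjusted *P* of 0.201), and *Mrpl30* 45.1, 53.0 and 50.4 CPM against 53.7, 42.8 and 39.7 CPM (0.12 ± 0.13).

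The stalk of the large subunit recruits the translation factors. *Mrpl12*, its flexible part, which is also known to bind the mitochondrial RNA polymerase, had 62.8, 68.5 and 63.4 CPM in *Smyd1-KO* and 92.3, 75.7 and 69.1 CPM in WT hearts. *Smyd1-KO* heart 2 and WT heart 3 almost met, and the log2 fold change was -0.28 ± 0.11 (adjusted *P* of 0.181). The anchor of the stalk, *Mrpl10*, was at -0.02 ± 0.08, and *Mrpl11*, at its base, at -0.18 ± 0.10, and both overlapped between the genotypes.

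*Mrpl58* is a peptidyl-tRNA hydrolase built into the large subunit that frees stalled chains. It had 39.5, 39.2 and 38.3 CPM against 53.7, 45.1 and 42.2 CPM, without overlap, at a log2 fold change of -0.27 ± 0.10 (adjusted *P* of 0.164). *Mrpl44*, which resembles an RNase III and whose loss in humans causes cardiomyopathy, had 30.5, 33.0 and 29.5 CPM against 32.1, 29.0 and 30.2 CPM and a log2 fold change of 0.03 ± 0.09. *Mrpl48* was at -0.0067 ± 0.10.

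In the small subunit no member was called, against 4.28% of all tested genes. *Mrps12*, of the decoding centre, had 28.9, 30.9 and 31.8 CPM in *Smyd1-KO* and 44.1, 38.3 and 35.4 CPM in WT hearts. All *Smyd1-KO* hearts were lower, and the log2 fold change was -0.36 ± 0.11 (adjusted *P* of 0.0909). *Mrps7*, an organizer of the head of the subunit, had 46.3, 47.1 and 51.0 CPM against 65.7, 56.4 and 57.1 CPM (-0.31 ± 0.09, adjusted *P* of 0.0892), and *Mrps26*, a mitochondria-specific protein, 32.0, 35.7 and 34.6 CPM against 48.8, 43.8 and 35.8 CPM (-0.33 ± 0.12, adjusted *P* of 0.158). In both the genotypes were apart, though in *Mrps26* only narrowly.

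*Mrps24*, the counterpart of a bacterial protein at the mRNA entry, had 21.5, 26.8 and 28.3 CPM against 37.2, 31.5 and 26.1 CPM, with overlap (-0.30 ± 0.16). Among mitochondria-specific proteins, *Mrps23* was at -0.24 ± 0.09, *Mrps25* at -0.24 ± 0.10 and *Mrps34* at -0.29 ± 0.13, each without overlap and with adjusted *P* of 0.152, 0.187 and 0.220. *Mrps34* shares 77.8% of its exonic bases with *Mapk8ip3* and *Nme3*, and *Mrps25* most of its own with *Nr2c2*, so their values rest on the remaining bases or on how the authors' counting treated the shared ones. *Mrps22*, whose loss in humans causes cardiomyopathy, had 30.0, 30.1 and 28.1 CPM against 34.1, 28.7 and 31.5 CPM (-0.10 ± 0.10), with overlap. *Mrps21* was at -0.12 ± 0.12, *Mrps14* at 0.09 ± 0.13, *Mrps16* at 0.07 ± 0.15, *Mrps9* at 0.11 ± 0.09 and *Mrps35* at 0.12 ± 0.10, all with overlap.

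Some symbols mislead as to place. The proteins of *Mrps30* and *Mrps18a* sit in the large subunit of the mammalian mitoribosome. *Mrps30* had 37.4, 34.6 and 31.7 CPM in *Smyd1-KO* and 29.9, 29.1 and 31.5 CPM in WT hearts, with a narrow gap between the genotypes and a log2 fold change of 0.20 ± 0.09 (adjusted *P* of 0.243). *Mrps18a* had 35.7, 36.7 and 34.9 CPM against 45.8, 41.3 and 38.7 CPM, at -0.23 ± 0.09 (adjusted *P* of 0.166), and its small-subunit paralogue *Mrps18b* was at -0.15 ± 0.11. *Mrps36* is now known as a part of the 2-oxoglutarate dehydrogenase complex and not of the ribosome, and it was at 0.02 ± 0.14.

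The subunits had similar medians. The median log2 fold change was -0.06 over 48 tested *Mrpl* genes, with 37 lower, and -0.11 over 28 *Mrps* genes, with 21 lower. With *Mrps18a* and *Mrps30* moved to the large subunit and *Mrps36* left out, the medians were -0.06 over 50 and -0.12 over 25 genes. Within each heart, the log2 ratio of the median large-subunit to the median small-subunit CPM was 0.30 ± 0.05 in *Smyd1-KO* and 0.33 ± 0.04 in WT hearts (SD, n = 3). The difference of -0.031 was smaller than the SD of either genotype. It was 0.053 with the subunits assigned by structure, for which no SD is given here. Genes of bacterial ancestry had a median of -0.06 over 45 genes, with both called members among them and 11 at an unadjusted *P* under 0.05 (24.4%), all lower. The mitochondria-specific genes had a median of -0.10 over 30 genes, with 0 called and 9 at an unadjusted *P* under 0.05 (30.0%), 8 of them lower. Both shares were near the 25.1% of all tested genes.

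Further mitoribosomal proteins have symbols outside the rule. None of the 6 listed was called, and their median log2 fold change was 0.05. *Dap3*, the GTP-binding protein of the small subunit, had 101, 110 and 112 CPM in *Smyd1-KO* and 96.6, 90.2 and 88.0 CPM in WT hearts. All *Smyd1-KO* hearts were higher, at 0.23 ± 0.08, but the adjusted *P* was 0.124. *Mrps18c*, which the rule's letters left out, was at -0.18 ± 0.12, *Ptcd3* at -0.15 ± 0.09, *Gadd45gip1* at 0.07 ± 0.16, *Aurkaip1* at 0.05 ± 0.08 and *Chchd1* at 0.04 ± 0.08. The genotypes overlapped in these 5 genes.

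None of the listed factors that work with the mitoribosome was called, against 4.28% of all tested genes. Of 12 translation factors 0 were called by edgeR, with a median log2 fold change of -0.09 and a range from -0.61 to 0.22. The gene at the low end is not among those named next. *Tsfm*, the exchange factor of the mitochondrial elongation factor Tu, had 28.1, 30.2 and 27.0 CPM in *Smyd1-KO* and 41.1, 36.8 and 32.0 CPM in WT hearts, all lower (-0.36 ± 0.11, adjusted *P* of 0.106). *Gfm1*, the translocase, was at -0.29 ± 0.11 (adjusted *P* of 0.179). Of 23 assembly and rRNA modification factors 0 were called, with a median of -0.08 and *Mrm3*, a methyltransferase of the large rRNA, furthest from 0 at -0.48 ± 0.11 (adjusted *P* of 0.0569). With an unadjusted *P* under 0.05 there were 2 translation factors (16.7%) and 3 assembly factors (13.0%), against 25.1% of all tested genes. DESeq2 also called 0 genes in both lists.

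The mitochondrial mRNAs that this ribosome translates were lower by far more. All 13 were lower in every *Smyd1-KO* heart than in any WT heart, 8 of them were called (10 by DESeq2), and the median log2 fold change was -0.88. The number called depended on the hearts used: it was 1 without WT heart 2, 3 without *Smyd1-KO* heart 2, 4 without WT heart 3, 6 to 9 without any of the other hearts and 0 with the replicate block, while all 13 stayed lower in each of these fits. *mt-Nd1*, a core subunit of complex I, had 887, 826 and 676 CPM in *Smyd1-KO* and 1904, 1525 and 1499 CPM in WT hearts, and a log2 fold change of -1.04 ± 0.15 (adjusted *P* of 0.0136). The large mitochondrial rRNA *mt-Rnr2* had 156, 181 and 198 CPM against 267, 216 and 244 CPM (-0.44 ± 0.12, adjusted *P* of 0.0765), and the small rRNA *mt-Rnr1* 167, 167 and 176 CPM against 181, 118 and 176 CPM (0.10 ± 0.16). The libraries were made from poly A RNA, so that levels of rRNA in them depend on how much of it was carried along. Of the 36 nuclear genes of complex I, 3 had an unadjusted *P* under 0.05 (8.33%, against 25.1% of all tested genes). These 36 genes had a median of 0.02, with 0 called by edgeR and 1 by DESeq2. Without WT heart 1 their median was 0.17, with 34 of 36 higher against 20 with all hearts, and without WT heart 3 it was -0.08. The cytosolic ribosomal protein genes had a median of 0.39, with 76 of 79 higher, 8 called higher and 1 called lower (12 and 1 by DESeq2). That count of 8 was 34 without WT heart 1, 6 without *Smyd1-KO* heart 1 and 0 without any of the other 4 hearts or with the replicate block, although 75 or 76 genes stayed higher in each of these fits. The median of the mitochondrial mRNAs was -0.79 and that of the cytosolic ribosomal protein genes 0.49 without WT heart 1, so that their directions did not rest on that heart.

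**Figure D4:**
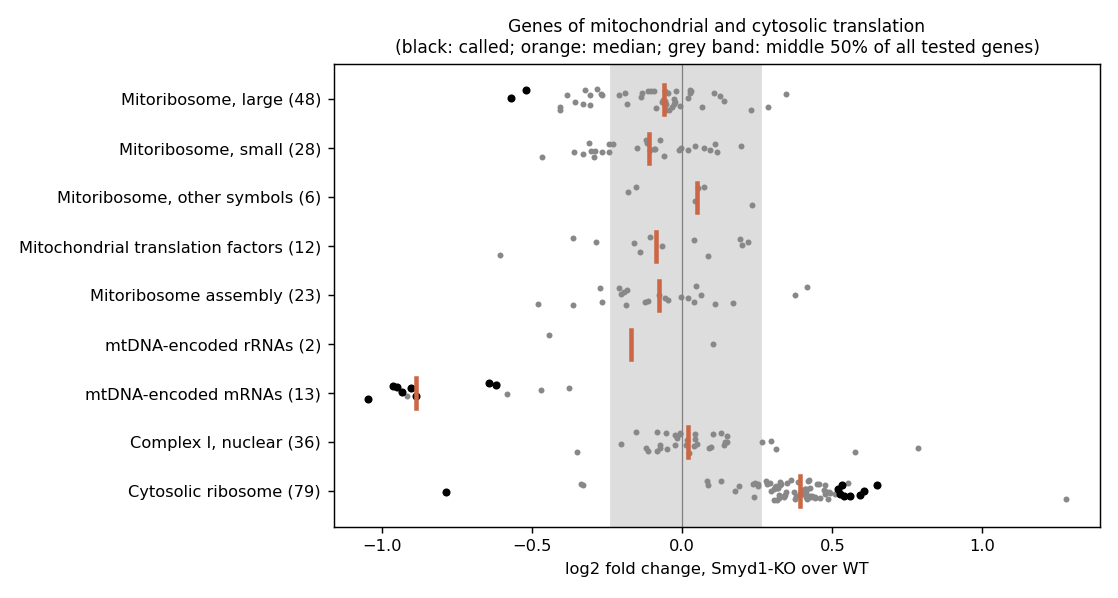
Log2 fold change of *Smyd1-KO* over WT (x axis) for the genes of each list, with the number of tested genes in brackets, called genes in black, the median in orange and the middle 50% of all tested genes as a grey band. The mitoribosomal medians of -0.06 and -0.11 lie within the band, while the mitochondrial mRNAs lie below it at -0.88 and the cytosolic ribosomal protein genes above it at 0.39.

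Many of the members share their start region with a gene on the other strand. A neighbour was defined as a protein-coding gene on the other strand whose outermost 5′ end lies within 1000 bases of the member's. Such a gene was annotated for 32 of the 76 tested members (42.1%), against 14.7% of 14943 tested protein-coding genes. In some pairs, such as *Mrpl43* and *Twnk*, the neighbour starts inside the member and the genes overlap. As the strand setting of the counts is not given, reads of such overlaps cannot be told apart. Of the 30 members whose neighbour was also tested, 18 had the same sign of change as the neighbour, with *Mrps11* and *Mrpl46* counted from each side. Among the 25 of these members that were lower, 14 had a lower neighbour, and the median log2 fold change of the neighbours was 0.0036. The same share over all gene pairs was not computed. *Mrps11* and *Mrpl46* are each other's neighbour on chromosome 7, and their first exons overlap. *Mrpl46* had 24.0, 23.1 and 24.6 CPM in *Smyd1-KO* and 34.3, 26.3 and 25.6 CPM in WT hearts, all lower (-0.27 ± 0.13, adjusted *P* of 0.255). *Mrps12* is paired with *Sars2*, the mitochondrial seryl-tRNA synthetase, which was at -0.29 ± 0.09 (adjusted *P* of 0.106), and *Mrpl37* with *Cyb5rl* at -0.22 ± 0.14. By contrast *Ndufs6*, the complex I gene that starts beside the called *Mrpl36*, was at -0.08 ± 0.14 (adjusted *P* of 0.754).

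In other pairs the neighbour was higher and the member was near 0. *Fau*, which encodes a cytosolic ribosomal protein and starts beside *Mrpl49*, was the 1 called neighbour, at 0.59 ± 0.12 (adjusted *P* of 0.0412, and 0.0286 to 0.175 with a heart left out), whereas *Mrpl49* was at -0.04 ± 0.08. *Apba3*, beside *Mrpl54*, was at 0.38 ± 0.08 (adjusted *P* of 0.0450) and *Mrpl54* at 0.03 ± 0.15. *Pnpla7*, beside *Mrpl41*, was at 0.22 ± 0.11, opposite in sign to *Mrpl41*. The difference between a member and its neighbour was not tested.

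**Figure D5:**
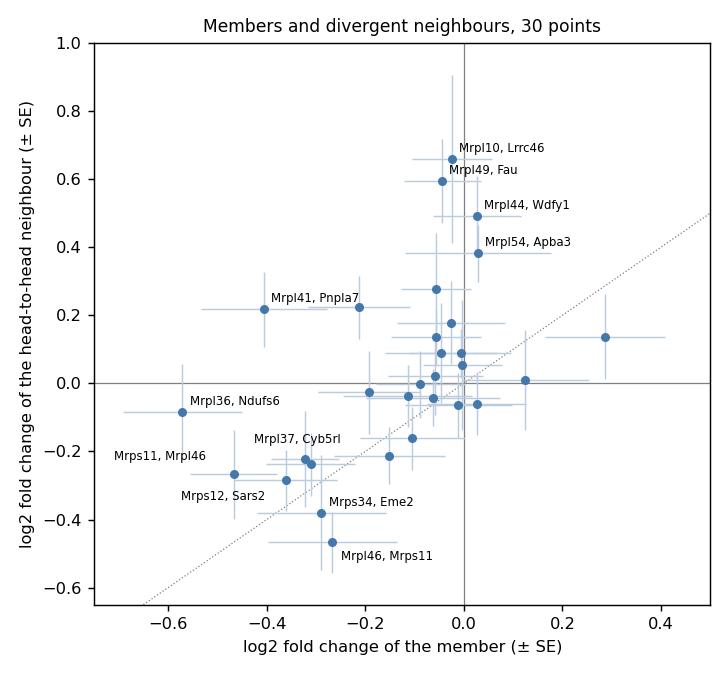
Log2 fold change of a member (x axis) against that of its head-to-head neighbour (y axis), each with its standard error, for the 30 members whose neighbour was tested, with the pair *Mrps11* and *Mrpl46* drawn once from each side and a dotted line of equality. *Sars2* and *Mrps12* lie near that line, and *Fau*, at 0.59, lies far above it.

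The start regions were also read for the letters of motifs known from nuclear genes for mitochondrial proteins. RefSeq start sites on GRCm38.p6 were matched for 68 of the members, and the 250 bases before the start were searched on both strands. These starts can differ from the outermost 5′ ends used above for the neighbours. For *Mrpl36* the RefSeq start is at chr13:73331009, while its 5′ end beside *Ndufs6* is at chr13:73328513. The letters counted for *Mrpl36* thus do not lie before the end beside *Ndufs6*. The NRF1 motif (GCGCA, any base, then GCGC) was found in 10 of 68 members (14.7%), against 5.51% of 16522 protein-coding promoters of the same length and 7.62% of those of 11560 tested genes. The motif of ETS factors such as GABP (CCGGAAG) was found in 17 (25%, against 9.71% of all and 13.0% of tested genes) and that of YY1 (AAGATGGC) in 4 (5.88%, against 1.52% and 1.84%). That of SP factors (GGGCGG) was found in 32 (47.1%, against 44.7% of all and 58.9% of tested genes), so that its order depended on the genes compared, and the E-box (CACGTG) in 4 (5.88%, against 6.75% and 8.17%). None of the letter strings contains another. Of the 10 members with the NRF1 letters, 9 were large-subunit genes. Their median log2 fold change was 0.03, against -0.10 for the members without them. It was -0.41 with and -0.09 without the YY1 letters, -0.42 and -0.09 for the E-box, -0.10 and -0.07 for the ETS letters and -0.10 and -0.07 for the SP letters, where the YY1 and E-box medians rest on 4 genes each. The 4 members with the YY1 letters were *Mrpl32*, *Mrpl36*, *Mrps11* and *Mrps12*. A match describes the letters only, and factor binding was not measured here.

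The 150 bases before the start of 3 members are shown because these genes differ in direction and in motif, *Mrpl45* (higher), *Mrpl34* (lower, the highest per length) and *Mrps12* (lower). They are RefSeq sequence of GRCm38.p6, clear of annotated exons, read 5′ to 3′ on the gene's strand, with matches to the listed letters in capitals. The capitals mark a pair of NRF1 matches in *Mrpl45* (chr11:97315566-97315715, plus strand), an ETS match in *Mrpl34* (chr8:71464776-71464925, plus strand) and an SP match in *Mrps12* (chr7:28741822-28741971, minus strand).
*Mrpl45*: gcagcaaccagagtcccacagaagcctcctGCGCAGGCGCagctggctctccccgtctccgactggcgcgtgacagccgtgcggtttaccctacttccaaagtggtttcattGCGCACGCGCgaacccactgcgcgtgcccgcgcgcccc
*Mrpl34*: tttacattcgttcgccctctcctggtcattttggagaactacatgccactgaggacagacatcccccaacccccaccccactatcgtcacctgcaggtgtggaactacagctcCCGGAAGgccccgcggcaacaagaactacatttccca
*Mrps12*: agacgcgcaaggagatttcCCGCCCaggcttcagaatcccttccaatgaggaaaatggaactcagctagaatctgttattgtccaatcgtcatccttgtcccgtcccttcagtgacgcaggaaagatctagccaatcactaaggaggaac

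Across genes, the change varied with base composition in the small subunit. The Spearman correlation between the log2 fold change and the GC content of the longest transcript was -0.73 over the 28 *Mrps* genes and -0.16 over the 48 *Mrpl* genes, against 0.03 over 14943 tested protein-coding genes. Without WT heart 1 it was -0.68 and -0.10. For the exonic length the correlation over all 76 members was 0.32, and 0.23 without WT heart 1. These values describe genes measured in the same 6 libraries, which are not independent replicates, and the part of base composition in the differences was not tested.

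Regulators known to act on nuclear genes for mitochondrial proteins were listed as well. *Nrf1*, whose motif is named above, had 64.9, 59.1 and 52.9 CPM in *Smyd1-KO* and 60.9, 61.4 and 64.2 CPM in WT hearts (-0.08 ± 0.09), *Gabpa* was at 0.03 ± 0.07 and *Yy1* at 0.0018 ± 0.08, all with overlap. *Ppargc1a*, a coactivator of mitochondrial biogenesis, was at -0.22 ± 0.29, with *Smyd1-KO* heart 1 at 11.2 CPM below the 18.8 to 25.8 CPM of the WT hearts and the other *Smyd1-KO* hearts at 24.4 and 23.4 CPM. Of the 9 regulators listed edgeR called 1, *Myc*, and DESeq2 called 2, both higher. *Myc* promotes ribosome synthesis and growth and had 52.7, 41.6 and 49.4 CPM against 34.7, 31.4 and 34.6 CPM. Every *Smyd1-KO* heart was higher, and the log2 fold change was 0.51 ± 0.11 (adjusted *P* of 0.0428). The call was lost with any of the 6 hearts left out, where the adjusted *P* was 0.0517 to 0.173, and with the replicate block.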

How the data were processed

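RNA-seq of 6 individual E9.5 mouse hearts was analysed, 3 *Smyd1-KO* and 3 WT, with genotype and replicate number taken from the sample labels. The authors made paired-end libraries from poly A RNA and mapped them to mm10 by STAR within bcbio-nextgen. The deposited raw table holds whole-number counts per gene, and the counting tool, annotation release and strand setting are not given in the sources used here, so reads of overlapping genes on opposite strands cannot be told apart. The deposited normalized table holds a signal that the authors made by dividing the counts by a DESeq2 size factor per heart, and it was used only to check this. All columns had a mapped sample (0 unmapped).

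Genotypes were tested on the counts by edgeR 4.0.16 under R 4.3.3 (filterByExpr, TMM, quasi-likelihood fit and test, Benjamini-Hochberg over 19372 genes), and a gene was called where the adjusted *P* was under 0.05 and the log2 fold change was 0.5 or more in size, the study's limits. The script was tested on simulated data. The standard error is the log2 fold change divided by the square root of the F statistic. CPM per heart use the TMM factors, a pseudocount of 0.5 was added for log2 deviations by heart, and TPM use the union exonic length of GENCODE M21. The biological coefficient of variation was 22.5%. The *P* values test the genotype difference against the spread between these hearts. The labels do not say whether hearts came from different litters, so the part of litter in either cannot be told apart. Alternatives were DESeq2 1.42.0, RLE, other filters, leaving out mitochondrially encoded and haemoglobin genes, a block for the replicate number, and each heart left out.

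The members and lists were chosen with earlier results of these data known. Named are the called members, in each subunit the 5 largest changes each way and the 3 highest and lowest levels per length, 13 members of fixed role, the member that failed the filter, and of each list the called genes or up to 3 largest changes. The translation factors were an exception, as their largest change was not named. *Mrpl4*, *Mrpl37*, *Mrpl38*, *Mrpl46*, *Mrpl49*, *Mrpl54*, *Mrps10* the head-to-head neighbours and the factors of the motifs were named after their values were seen. Summaries and plots were made with pandas 2.3.3, scipy 1.17.1 and matplotlib 3.10.9 under Python 3.11.15.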

Additional observations from a re-analysis of the deposited data

How the results depend on the processing

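*Mrpl36* and *Mrpl20* were the 2 members called with TMM, with RLE, without a filter, with at least 10 counts in every heart, without mitochondrially encoded and haemoglobin genes and with DESeq2, and the settings that leave out a heart gave 0 to 1. With the adjusted *P* alone, an alternative added after the data had been seen, 5 members passed. DESeq2 called 1749 genes in all, where edgeR called 830, and leaving out a heart gave 97 to 1256. Members at an unadjusted *P* under 0.05 numbered 13 to 22 with a heart left out, and the large-subunit median ran from -0.11 to 0.0077 and the small-subunit median from -0.17 to -0.026. The difference in the log2 ratio of large to small subunit was -0.031, and -0.056 to -0.0048 with a heart left out. It turned to 0.053 with the subunits assigned by structure and to 0.024 with the 6 proteins of other symbols, and was -0.089 over the members with no shared exonic base, a set also chosen after the data had been seen. With the subunits assigned by symbol the SD between hearts was 0.05 in *Smyd1-KO* and 0.04 in WT hearts. No SD is given here for the other sets, so their differences cannot be set against the spread between hearts.

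The labels do not say whether the replicate numbers pair the hearts. The deviations of same-numbered hearts correlated at -0.22, -0.05 and -0.18, and those of differently numbered hearts at -0.16 to 0.29. With 3 hearts a genotype these values cannot decide whether the hearts are paired. With the replicate block 0 members and 59 genes in all were called, and 13 members had an unadjusted *P* under 0.05. *Mrpl36* was then at -0.56 (adjusted *P* of 0.152) and *Mrpl20* at -0.52 (0.138).

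Of the 38 members named by the stated criteria, 10 changed sign when a heart was left out. Their log2 fold changes then ran from -0.075 to 0.029 for *Mrpl3*, -0.062 to 0.043 for *Mrpl10*, -0.13 to 0.046 for *Mrpl28*, -0.031 to 0.077 for *Mrpl32*, -0.070 to 0.12 for *Mrpl33*, -0.019 to 0.074 for *Mrpl44*, -0.066 to 0.088 for *Mrpl48*, -0.033 to 0.23 for *Mrps16*, -0.21 to 0.0084 for *Mrps21* and -0.078 to 0.14 for *Mrps36*. Of the members named after their values were seen, *Mrpl49* (-0.076 to 0.0057) and *Mrpl54* (-0.10 to 0.17) also changed sign. The cause was not tested. With 3 hearts a genotype and a median standard error of 0.10 on the log2 scale, differences as small as the family's median of -0.09 cannot be resolved gene by gene.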

Other observations

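The cytosolic ribosomal protein genes, the counterpart of the mitoribosomal genes in the cytosol, contained 8 genes called higher in *Smyd1-KO* hearts: *Rpl9*, *Rpl17*, *Rpl22*, *Rpl39*, *Rps3a1*, *Rps18*, *Rps27* and *Fau*, at log2 fold changes of 0.52 to 0.65. None of them was called without *Smyd1-KO* heart 2 or 3 or WT heart 2 or 3, or with the replicate block, and without WT heart 1 the list held 34 genes called higher. *Rpl17*, of the large subunit, had 740, 719 and 666 CPM in *Smyd1-KO* and 527, 410 and 420 CPM in WT hearts (0.65 ± 0.12, adjusted *P* of 0.0304 by edgeR). *Rpl30* went down, with 115, 105 and 95.1 CPM against 214, 167 and 163 CPM (-0.79 ± 0.13, adjusted *P* of 0.0210, and 0.0186 to 0.0858 with a heart left out). Many processed pseudogenes resemble these genes, so reads may be split between them in a way the counting does not show. Pseudogene rows of the mitoribosomal genes held 0 to 115 counts per heart. Among the regulators, *Ppargc1b*, a coactivator related to *Ppargc1a*, had 13.3, 17.2 and 19.6 CPM against 12.6, 8.90 and 6.74 CPM, without overlap but with an adjusted *P* of 0.101 (0.83 ± 0.25). *Ndufv3*, of complex I, had 71.5, 90.8 and 111 CPM against 65.2, 50.3 and 43.1 CPM (0.78 ± 0.20, adjusted *P* of 0.0656).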
